A study of Mus musculus with 16 samples.

Results

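Nuclear receptors and the coregulators that bind them are described here as 37 genes in mouse liver, taken from the raw count table by gene symbol: 30 receptors, 5 coactivators and 2 corepressors. They are 37 of the 53372 genes in the table, and all 37 were among the 17810 genes that passed the filter on low counts. The livers came from FVB/NCrl mice given diphenyl phosphate (DPhP), an organophosphate, at 0 mg/L (CTRL), 0.1 mg/L (C1), 1 mg/L (C2) or 10 mg/L (C3). Neither the age and sex of the mice nor the route of exposure is given in the sources used here. The livers of a group were pooled, and 4 libraries were made from each pool as analytical replicates, so the 16 libraries stand for 4 pools. The p-values below therefore measure the spread between libraries of a pool, which is technical, and a difference between pools cannot be told apart from an effect of the concentration.

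Nuclear receptors are transcription factors, most of them switched by small lipophilic ligands such as bile acids, oxysterols, retinoids, fatty acids and steroids. Many bind DNA as partners of a retinoid X receptor, at repeats of a short hexamer, and recruit coactivators or corepressors that open or close chromatin. In hepatocytes they set bile acid, lipid, glucose and drug metabolism, and HNF4A maintains much of the hepatocyte programme.

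Total counts ran from 14434761 in C1-3 to 45109243 in C2-1. The 10 hepatocyte markers were all detected, at a summed 79220 to 94840 CPM (counts divided by the TMM-scaled library size) in CTRL and 36400 to 84160 CPM in C2. Distinct from the rest, by an index of RNA kept in the nucleus, were libraries C2-3, C2-4 and C3-4. The index averages the log2 CPM of 4 RNAs, namely Kcnq1ot1, Malat1, Neat1 and Xist. These RNAs and the 3 libraries were chosen with these data already seen, so the separation is a description, not a test. The index was 10.15, 10.07 and 9.97 in those 3 libraries and at most 9.39 in the other 13. By group it was 8.66 ± 0.25 in CTRL livers, 9.21 ± 0.15 in C1, 9.53 ± 0.67 in C2 and 9.36 ± 0.41 in C3 (SD, n = 4 each). Many results are therefore also given without those 3 libraries. That fit keeps only C2-1 and C2-2 in C2, which had the highest total counts of all libraries, and C3-1, C3-2 and C3-3 in C3.

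Promoter sequence was searched for the hexamer, and 3 of the windows that held it are printed below as examples. RefSeq windows on GRCm38.p6, from 250 bases before to 50 after a start, were used for 32 of the 37 genes, 49 windows in all. The motif AGGTCA, searched on both strands, was in 9 of the 49 windows (18.4%), against 5340 of all 32851 windows (16.3%). The longer TCAAGGTCA, which contains that hexamer, was in 0 of 49 windows and in 0.423% of all windows. The direct repeat AGGTCANAGGTCA was in 0 of 49 windows and in 0.0396% of all. A match is a description of the letters, not a bound site. Among receptors called changed in C2, the windows of Hnf4a, Nr1h3, Nr1h5, Nr2f2, Nr3c2, Esr1 and Vdr held no AGGTCA. A window of Nr5a2 and a further window of Pparg held it but are not printed. The 3 windows below belong to receptors called changed in C2 and are printed 5′ to 3′ on the strand of the gene, with the hexamer or its reverse complement in capitals. They lie at chr10:89506609-89506908 on the minus strand (Nr1h4), chr2:27709042-27709341 on the plus strand (Rxra) and chr6:115362099-115362398 on the plus strand (Pparg).
Nr1h4: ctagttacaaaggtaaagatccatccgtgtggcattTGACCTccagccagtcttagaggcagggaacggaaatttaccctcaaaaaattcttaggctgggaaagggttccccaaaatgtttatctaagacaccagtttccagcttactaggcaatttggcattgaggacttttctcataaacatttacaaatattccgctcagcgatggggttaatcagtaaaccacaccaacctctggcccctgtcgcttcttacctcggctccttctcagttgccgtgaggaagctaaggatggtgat
Rxra: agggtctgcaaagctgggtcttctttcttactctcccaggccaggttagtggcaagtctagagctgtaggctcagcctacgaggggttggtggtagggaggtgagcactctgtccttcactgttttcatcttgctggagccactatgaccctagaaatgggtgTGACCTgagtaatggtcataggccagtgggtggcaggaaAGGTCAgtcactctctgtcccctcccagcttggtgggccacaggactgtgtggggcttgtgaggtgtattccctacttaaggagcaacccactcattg
Pparg: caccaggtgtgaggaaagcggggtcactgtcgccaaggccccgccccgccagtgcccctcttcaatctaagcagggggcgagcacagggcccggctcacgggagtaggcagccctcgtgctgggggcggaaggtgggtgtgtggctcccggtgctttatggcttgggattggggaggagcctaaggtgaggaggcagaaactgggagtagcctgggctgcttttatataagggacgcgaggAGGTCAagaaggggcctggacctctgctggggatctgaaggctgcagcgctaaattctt
Relative to the annotated start, the hexamer began at -214 on the opposite strand for Nr1h4, and at -9 on the gene's strand for Pparg. The printed Rxra window held a copy at -87 on the opposite strand and another at -48 on the gene's strand, and the other Rxra window held none.

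Per kilobase of exon, the order of levels in CTRL was led by Hnf4a at 82.2 ± 8.09 CPM per kb (SD, n = 4, as for the other levels here), a receptor that is constitutively active in hepatocytes. Nr1i3 (CAR) followed at 67.1 ± 8.92 CPM per kb, then Rxra at 43.4 ± 6.71, Nr0b2 (SHP) at 39.7 ± 1.56, Nr1h4 (FXR) at 33.0 ± 2.73, Nr1h3 (LXRα) at 28.8 ± 1.99 and Nr1i2 (PXR) at 26.9 ± 1.02. The intervals of 1 SD of neighbours met between Hnf4a and Nr1i3, between Rxra and Nr0b2, between Nr1h4 and Nr1h3, and between Nr1h3 and Nr1i2. Nr2f6 stood at 18.4 ± 5.12 CPM per kb, Nr3c1 at 14.1 ± 0.663, Nr5a2 at 9.71 ± 0.184 and Nr1h2 at 9.14 ± 0.384, where only the first pair met. The coregulators were lower than the receptors just named, led by Ncor1 at 5.07 ± 0.208 CPM per kb and Med1 at 3.64 ± 0.258. Other receptors, such as Esr1 at 4.67 ± 0.251 CPM per kb, were below Ncor1. At the bottom were Vdr at 0.126 ± 0.0716, Nr2f1 at 0.124 ± 0.0229 and Hnf4g at 0.0618 ± 0.0488 CPM per kb.

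Against CTRL, 12 of the 37 genes changed in C2, 5 higher and 7 lower, with edgeR's quasi-likelihood test at an adjusted p under 0.05. That is 32.4% of the genes, against 18.3% of all genes tested in that comparison, 8.03% higher and 10.2% lower. In C1, 3 changed (2 higher, 1 lower; 8.11% against a background of 2.32%, 0.938% higher and 1.39% lower), and in C3, 3 changed (1 higher, 2 lower; 8.11% against 1.4%, 0.522% higher and 0.876% lower). The median log2 fold change over the 37 was 0.0020 in C1, -0.024 in C2 and 0.081 in C3, beside 0.0069, 0.029 and 0.0045 over all genes. Under upper-quartile scaling the C1 calls split 4 higher and 0 lower, and the median of all genes in C2 moved to 0.10. Over all genes, 43.9% of the C2 calls were higher with TMM and 58.5% with upper-quartile scaling. The libraries of a DPhP group lay wholly to 1 side of CTRL for 13 of the 37 genes in C1, 14 in C2 and 11 in C3, against 18.2%, 20.7% and 12.8% of all genes. The comparisons share the CTRL libraries. The C1 count includes Hnf4g, and the C2 and C3 counts include Vdr. Both genes passed the filter on low counts only through groups where they were high, Hnf4g through C1 and Vdr through CTRL and C1.

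**Figure D1:**
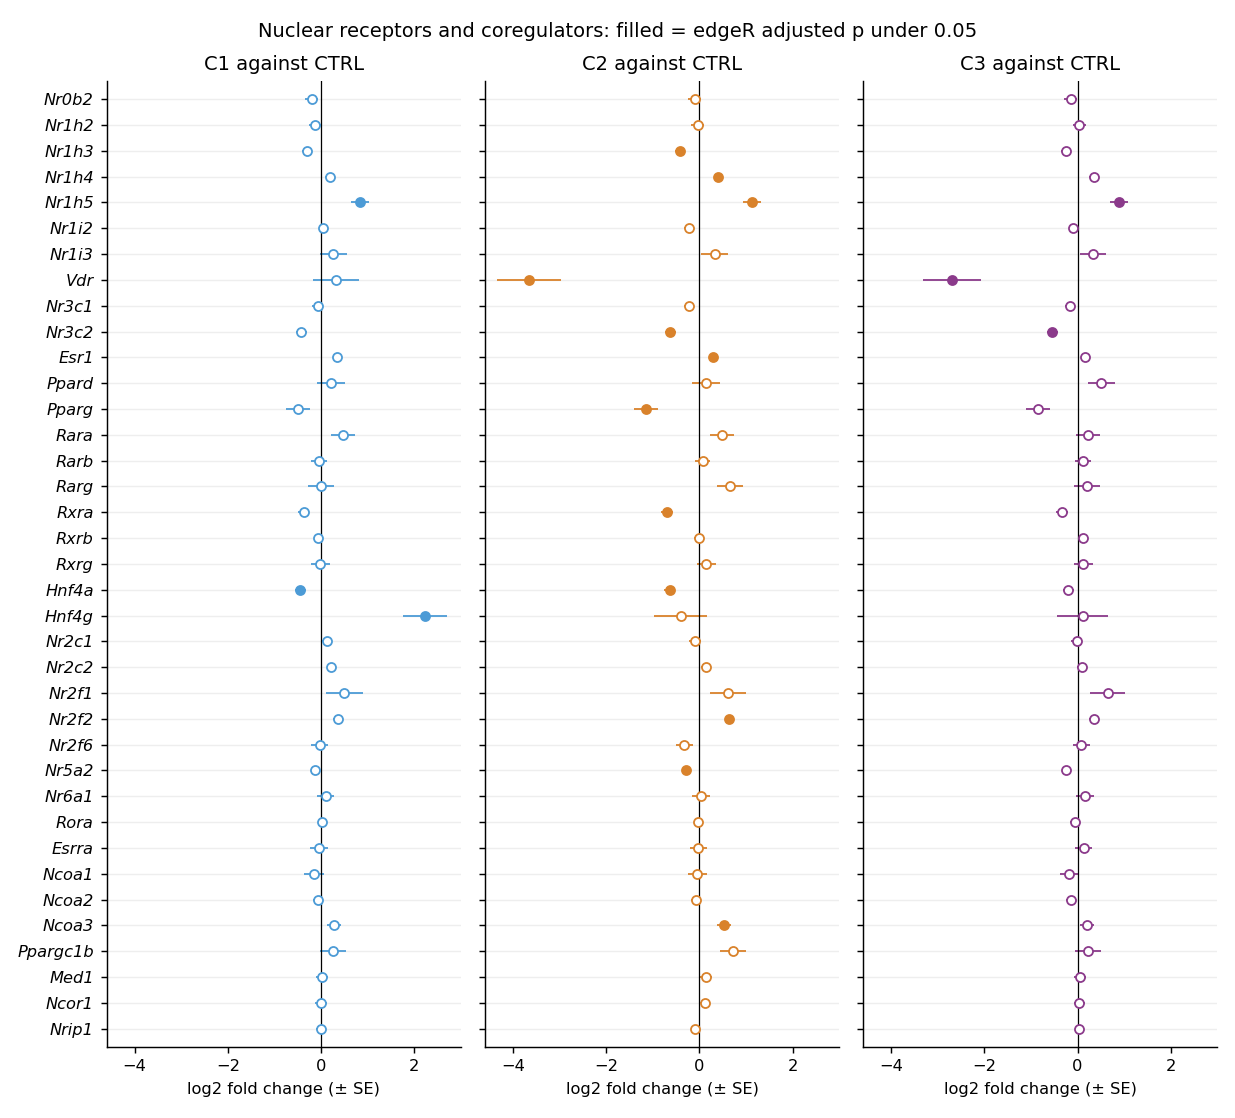
Log2 fold change (horizontal axis, ± SE from edgeR) of each of the 37 genes in C1, C2 and C3 against CTRL, with filled points for an adjusted p under 0.05. C2 has 12 filled points and C1 and C3 have 3 each, and Nr1h5 is filled and right of 0 in all 3 panels.

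The calls rested on the libraries to different degrees. In C2, 9 to 14 genes were called when any 1 library was left out, and Nr1h4, Nr1h5, Vdr, Nr3c2, Pparg, Rxra, Hnf4a and Nr2f2 were called in all 16 such fits. The C1 count was 0 without C1-1, C1-4, CTRL-2 or CTRL-4, 1 without C1-2, CTRL-1 or CTRL-3, and 6 without C2-3. The C3 count was 0 without C3-4, CTRL-2 or CTRL-3 and 1 without C3-1, C3-3 or CTRL-4. DESeq2 added 4 genes in C1 (Nr3c2, Esr1, Rxra and Nr2f2), 2 in C2 (Nr1i2 and Ppargc1b) and 4 in C3 (Nr1h4, Pparg, Nr2f2 and Nr5a2). The counts over all genes moved too, from 414, 3254 and 249 in C1, C2 and C3. They were 924, 4188 and 768 with DESeq2. With 1 library left out they ran from 159 to 588 in C1, 1972 to 4492 in C2 and 97 to 450 in C3.

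Among the bile acid and sterol receptors, the FXR genes were higher and LXRα was lower in C2. Nr1h5 encodes FXRβ, a lanosterol-sensing receptor in mice and a pseudogene in humans. Its level was 3.80, 3.33, 3.05 and 2.95 CPM in CTRL libraries 1 to 4, 5.19, 6.47, 5.17 and 6.45 CPM in C1, 6.13, 5.64, 9.76 and 7.38 CPM in C2, and 5.74, 5.01, 5.35 and 8.17 CPM in C3. All 12 DPhP libraries lay above all 4 CTRL libraries. The log2 fold change was 0.83 ± 0.19 (SE) in C1 (edgeR adjusted p = 0.0279), 1.12 ± 0.19 in C2 (edgeR adjusted p = 0.000786) and 0.89 ± 0.19 in C3 (edgeR adjusted p = 0.0249). Leaving out 1 library ended the C1 call in 6 of 16 fits (C1-1, C1-2, C1-4, CTRL-2, CTRL-3 and CTRL-4; adjusted p up to 0.107) and the C3 call in 5 of 16 (C3-1, C3-4, CTRL-2, CTRL-3 and CTRL-4; up to 0.1). Over the 16 libraries Nr1h5 had a Pearson r of 0.892 with the nuclear RNA index, whose part in the result was not tested. Without C2-3, C2-4 and C3-4 the calls held, at 0.82 ± 0.14 in C1, 0.86 ± 0.15 in C2 and 0.71 ± 0.14 in C3.

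Nr1h4 encodes FXR, the main bile acid sensor of the hepatocyte. It measured 76.7, 80.6, 79.6 and 66.8 CPM in CTRL, 86.7, 90.6, 81.2 and 86.7 CPM in C1, 101, 101, 105 and 95.2 CPM in C2, and 99.2, 89.2, 93.1 and 104 CPM in C3. Every DPhP library was above every CTRL library. Nr1h4 rose in C2 by 0.41 ± 0.10 on the log2 scale (edgeR adjusted p = 0.00854), a call lost with no filter on low counts. In C3 the log2 fold change of 0.34 ± 0.10 had an edgeR adjusted p of 0.0863 with all libraries, and 0.30 ± 0.08 had 0.0169 without the 3 that stood apart. In C1 the log2 fold change of 0.18 ± 0.10 had an edgeR adjusted p of 0.365.

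Nr1h3 encodes LXRα, which senses oxysterols and drives sterol efflux and lipogenesis. Its libraries held 66.4, 78.5, 71.4 and 73.3 CPM in CTRL, 61.8, 60.9, 58.4 and 54.7 CPM in C1, 49.4, 48.9, 58.8 and 60.9 CPM in C2, and 60.4, 66.37, 65.4 and 51.7 CPM in C3. All DPhP libraries were below all CTRL libraries, closest in C3. Nr1h3 fell in C2 (edgeR log2 fold change -0.41 ± 0.11, adjusted p = 0.0152), a call lost without CTRL-2 (adjusted p = 0.0616) and when only the 2 groups were fitted. Without the 3 libraries that stood apart it was also called in C1, at -0.31 ± 0.07 (edgeR adjusted p = 0.00422).

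Nr0b2 encodes SHP, a receptor without a DNA-binding domain that represses bile acid synthesis downstream of FXR. It had 43.7, 47.4, 43.6 and 44.9 CPM in CTRL, 40.8, 38.2, 41.6 and 35.4 CPM in C1, 31.6, 35.2, 54.3 and 46.7 CPM in C2, and 38.4, 45.1, 42.7 and 36.3 CPM in C3. C2-1 and C2-2 lay below CTRL while C2-3 lay above it, and edgeR called no comparison with CTRL. Without C2-3, C2-4 and C3-4, Nr0b2 was called lower in C2 (-0.41 ± 0.09, edgeR adjusted p = 0.00128), as was Nr1h2, which encodes the widely expressed LXRβ (-0.36 ± 0.09, edgeR adjusted p = 0.0038).

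The xenobiotic receptors gave no edgeR call against CTRL with all libraries. Nr1i3 encodes CAR, which induces cytochrome P450 genes of drug metabolism. Its libraries held 340.3, 269, 257 and 318 CPM in CTRL, 311, 361, 377 and 375 CPM in C1, 238, 182, 586 and 483 CPM in C2, and 269.6, 352, 332 and 535 CPM in C3. The lowest 2 and the highest of the 16 values were both in C2, and the 3 libraries with the highest nuclear RNA index held the 3 highest values. With all libraries the C2 log2 fold change was 0.33 ± 0.29 (edgeR adjusted p = 0.435). Without C2-3, C2-4 and C3-4 it was -0.48 ± 0.13 (edgeR adjusted p = 0.00604), the opposite direction. Nr1i2 encodes PXR, a sensor of many drugs and bile acids, and had 65.5 to 70.9 CPM in CTRL and 52.0 to 65.0 CPM in C2. Its C2 log2 fold change was -0.23 ± 0.09 (edgeR adjusted p = 0.0819), DESeq2 called it lower (-0.22, adjusted p = 0.012), and without the 3 libraries it was -0.31 ± 0.08 (edgeR adjusted p = 0.00599).

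Vdr encodes the vitamin D receptor, which hepatocytes hardly express and intestinal epithelium expresses strongly. It measured 1.16, 0.476, 0.935 and 0.283 CPM in CTRL, 0.794, 0.563, 1.35 and 0.948 CPM in C1, 0.0470, 0.0525, 0.106 and 0 CPM in C2, and 0, 0.0954, 0.198 and 0.171 CPM in C3. These values rest on 79 counts over the 4 CTRL libraries, 72 in C1, 6 in C2 and 10 in C3. A count of 0 allows up to 0.201 CPM in C2-4 and 0.0917 CPM in C3-1 at 3 counts per library, for counting error only. No C2 or C3 library reached the lowest CTRL value. Vdr fell in C2 (edgeR log2 fold change -3.65 ± 0.69, adjusted p = 0.00178) and in C3 (-2.69 ± 0.63, edgeR adjusted p = 0.0412). The C3 call was lost in 11 of 16 fits without 1 library (any C1 or C3 library, CTRL-1, CTRL-2 or CTRL-3; adjusted p up to 0.134) and under limma-voom.

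Hnf4g encodes HNF4γ, the close relative of HNF4A that is typical of intestine. Its levels were 0.120, 0.146, 0.343 and 0.0404 CPM in CTRL, 0.860, 0.506, 0.5995 and 1.23 CPM in C1, 0.0940, 0.105, 0.158 and 0.201 CPM in C2, and 0.214, 0.0954, 0.198 and 0.214 CPM in C3. The 4 C1 libraries lay above the other 12, with 69 counts in C1 beside 19 in CTRL, 14 in C2 and 18 in C3. Hnf4g passed the filter only through C1, where 4 of 4 libraries and 0 of the other 12 reached its cut of 0.431 CPM, so the choice of tested genes used the group in which it was high. Vdr reached that cut in 3 CTRL and 4 C1 libraries and in 0 of C2 and C3. Hnf4g rose in C1 by 2.23 ± 0.47 on the log2 scale (edgeR adjusted p = 0.0171), a call lost without C1-1, C1-4, CTRL-1, CTRL-2 or CTRL-4 (adjusted p up to 0.0965).

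Markers of intestinal epithelium also differed between the groups, while the log2 fold change of Vdr in C1 was 0.33 ± 0.49 (edgeR adjusted p = 0.814) and that of Hnf4g in C2 was -0.40 ± 0.57 (edgeR adjusted p = 0.65). Of the 9 tested among 10 such markers, 5 were higher and 0 lower in C1, while 0 were higher and 7 lower in both C2 and C3. The median log2 fold change of the 9 was 1.5 in C1, -4.08 in C2 and -3.8 in C3. The summed level of the 10 is weighted to the most abundant markers. It was 63.0 to 89.0 CPM in CTRL livers, 87.3 to 104.4 in C1, 56.4 to 89.0 in C2 and 54.0 to 65.4 in C3. In CTRL, 0 of the 10 were at 0. Sis, the brush-border sucrase-isomaltase, had 1.16, 0.622, 0.997 and 0.364 CPM in CTRL, 5.86, 2.98, 4.50 and 4.22 CPM in C1, and 0 in 3 of 4 libraries of both C2 and C3. The 1 tested vitamin D receptor target of 4, S100g, a calcium-binding protein of enterocytes, averaged 2.05 ± 1.04 CPM in CTRL livers, 4.73 ± 0.715 in C1, 0.145 ± 0.104 in C2 and 0.245 ± 0.117 in C3 (SD, n = 4 each). It fell in C2 (edgeR log2 fold change -3.69, adjusted p = 0.000172) and C3 (-3.08, edgeR adjusted p = 0.00238). The part of intestinal RNA in the Vdr and Hnf4g results was not tested. In bulk RNA, fewer cells of a type and less RNA per cell cannot be told apart.

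**Figure D2:**
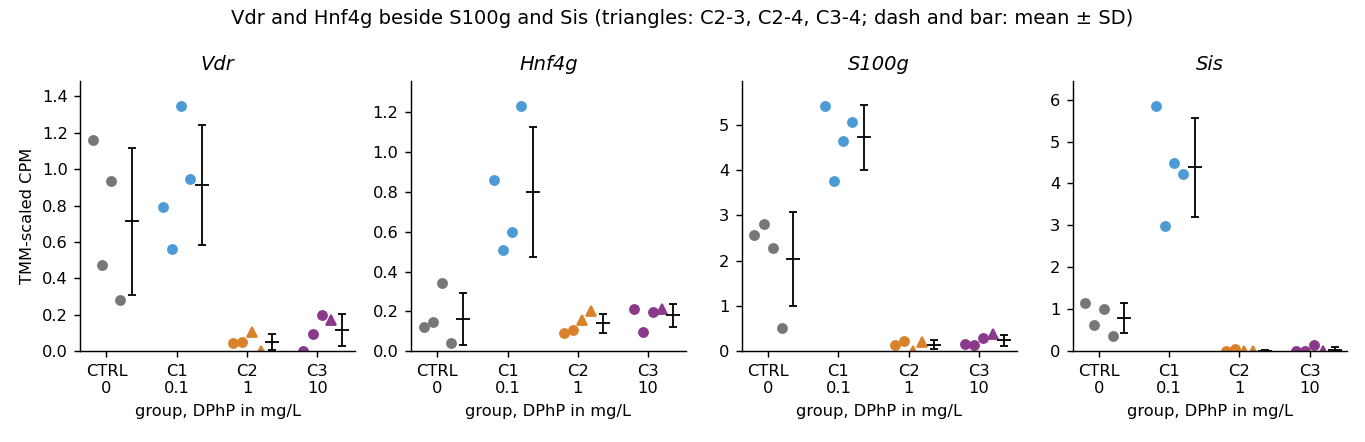
TMM-scaled CPM (vertical axis) of Vdr, Hnf4g, S100g and Sis in each library by group and DPhP concentration, with the mean and SD of 4 libraries beside the points and triangles for C2-3, C2-4 and C3-4. All 4 genes have higher means in C1 than in C2 and C3, where Vdr stays at or under 0.198 CPM.

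Of the steroid hormone receptors, the mineralocorticoid receptor was lower and the estrogen receptor higher in C2. Nr3c2, the mineralocorticoid receptor, is best known for salt handling in kidney. It measured 10.8, 11.8, 12.2 and 11.999 CPM in CTRL, 9.36, 8.495, 9.37 and 7.73 CPM in C1, 7.49, 8.76, 6.39 and 7.65 CPM in C2, and 8.65, 8.73, 7.58 and 7.06 CPM in C3. All 12 DPhP libraries were below all 4 CTRL libraries. Nr3c2 fell in C2 (edgeR log2 fold change -0.62 ± 0.12, adjusted p = 0.00189) and C3 (-0.54 ± 0.12, edgeR adjusted p = 0.0261), and the C3 call was lost without C3-3, C3-4, CTRL-2, CTRL-3 or CTRL-4 (adjusted p up to 0.118) and with no filter. In C1 its log2 fold change of -0.42 ± 0.12 had an edgeR adjusted p of 0.0743, and 0.00683 without the 3 libraries that stood apart. Its Pearson r with the nuclear RNA index was -0.845, whose part was not tested.

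Esr1 encodes estrogen receptor α. Its libraries held 67.0, 61.2, 66.5 and 60.5 CPM in CTRL, 82.1, 74.7, 78.9 and 89.3 CPM in C1, 81.3, 81.2, 71.4 and 80.5 CPM in C2, and 72.4, 69.2, 72.4 and 73.1 CPM in C3. Every DPhP library was above every CTRL library. Esr1 rose in C2 (edgeR log2 fold change 0.30 ± 0.09, adjusted p = 0.0322), a call lost without C2-1, C2-2, C2-4, CTRL-2, CTRL-3 or CTRL-4 (adjusted p up to 0.0931), with no filter and when only the 2 groups were fitted. The C1 log2 fold change of 0.35 ± 0.09 had an edgeR adjusted p of 0.0577, and 0.0014 without C2-3, C2-4 and C3-4.

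Nr3c1 encodes the glucocorticoid receptor, which mediates the liver's response to cortisol and corticosterone. It had 110.1, 109, 112 and 101 CPM in CTRL, 103, 101, 103 and 102 CPM in C1, 99.7, 107, 85.9 and 78.7 CPM in C2, and 108, 96.2, 97.3 and 86.7 CPM in C3. The groups overlapped, and its log2 fold changes of -0.08 ± 0.11 in C1, -0.22 ± 0.11 in C2 and -0.16 ± 0.11 in C3 were not called. Its Pearson r with the nuclear RNA index was -0.878.

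Of the PPARs measured, Pparg, which drives fat storage, had 3.20, 4.39, 4.74 and 5.41 CPM in CTRL, 4.07, 3.15, 2.92 and 2.32 CPM in C1, 1.90, 2.57, 1.06 and 2.48 CPM in C2, and 3.12, 2.81, 2.23 and 1.67 CPM in C3. All C2 and C3 libraries were below all CTRL libraries, and C1 overlapped CTRL. Pparg fell in C2 (edgeR log2 fold change -1.14 ± 0.26, adjusted p = 0.00656), and its Pearson r with the nuclear RNA index was -0.81, whose part was not tested. In C3 the log2 fold change of -0.84 ± 0.26 had an edgeR adjusted p of 0.111 (DESeq2 0.0408), and without the 3 libraries it was -0.70 ± 0.21 with 0.0449. Ppard, a receptor for fatty acids found in most tissues, overlapped CTRL in every group.

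Rxra encodes RXRα, the shared partner of FXR, LXR, PPAR, CAR, PXR and the retinoic acid receptors. It measured 215, 221, 219.8 and 292 CPM in CTRL, 189, 194, 185 and 163 CPM in C1, 145, 148, 141 and 155 CPM in C2, and 174, 213, 201 and 166 CPM in C3. Every DPhP library was below every CTRL library, and CTRL-4 stood far above the other 3 of its group. Rxra fell in C2 (edgeR log2 fold change -0.69 ± 0.13, adjusted p = 0.00153), and the adjusted p was at most 0.00671 in the fits without 1 library. The log2 fold change of -0.38 ± 0.13 in C1 had an edgeR adjusted p of 0.137, and 0.00524 without the 3 libraries that stood apart. The other 5 retinoid receptors, Rxrb and Rxrg of the RXR family and Rara, Rarb and Rarg, which bind retinoic acid, were not called against CTRL by edgeR with all libraries. Rara and Rarg ran with the nuclear RNA index, at a Pearson r of 0.82 and 0.833 over the 16 libraries. In C2, Rara had 8.32 and 7.24 CPM in C2-1 and C2-2 but 16.04 and 17.0 CPM in C2-3 and C2-4. Without those and C3-4, Rara was called higher in C1 (0.45 ± 0.14, edgeR adjusted p = 0.0318), and its C2 log2 fold change was -0.11 ± 0.17 in place of 0.49.

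Hnf4a was the most abundant of the 37 genes per kilobase and was lower at the 2 lower concentrations. Its libraries held 382, 383, 368 and 454 CPM in CTRL, 293, 294, 296 and 279.8 CPM in C1, 243, 246, 266 and 269 CPM in C2, and 301, 384, 359 and 335 CPM in C3. C1 and C2 lay wholly below CTRL, and C3 overlapped it. Hnf4a fell in C2 (edgeR log2 fold change -0.63 ± 0.12, adjusted p = 0.0015) and in C1 (-0.45 ± 0.12, edgeR adjusted p = 0.049). The C1 call held in 3 of 16 fits without 1 library, those without C2-2, C2-3 or C3-4, with an adjusted p up to 0.184 in the rest, and was lost under upper-quartile scaling and with no filter. Without C2-3, C2-4 and C3-4 together, it was -0.46 ± 0.08 in C1 (edgeR adjusted p = 0.000331). Hepatocyte markers moved the same way in C2, where 0 of 10 were higher and 5 lower, with a median log2 fold change of -0.54. In C1, 0 were higher and 0 lower, with a median of -0.13. In C3, too, 0 were higher and 0 lower, with a median of -0.41, while the Hnf4a log2 fold change there was -0.20 ± 0.12 (edgeR adjusted p = 0.407). Within C2, Alb was 46799 and 50572 CPM in C2-1 and C2-2, and 17620 and 22694 CPM in C2-3 and C2-4. Hnf4a was instead slightly higher in C2-3 and C2-4, as was the marker Ass1 (672 and 703 CPM, against 519 and 473 CPM). The part of hepatocyte markers in the Hnf4a result was not tested.

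Nr2f2 encodes COUP-TFII, an orphan receptor of endothelial and mesenchymal cells that hepatocytes also express. It had 18.9, 17.5, 16.8 and 20.2 CPM in CTRL, 23.8, 23.0, 22.6 and 24.3 CPM in C1, 26.1, 25.1, 32.4 and 31.0 CPM in C2, and 24.2, 24.2, 23.0 and 22.3 CPM in C3. All DPhP libraries lay above all CTRL libraries, C2 highest. Nr2f2 rose in C2 (edgeR log2 fold change 0.64 ± 0.10, adjusted p = 0.000411). Its log2 fold changes of 0.35 ± 0.10 in C1 and 0.35 ± 0.10 in C3 had edgeR adjusted p-values of 0.0749 and 0.087, and DESeq2 called both. Without the 3 libraries that stood apart both were called, at 0.35 ± 0.08 in C1 (edgeR adjusted p = 0.00365) and 0.37 ± 0.08 in C3 (edgeR adjusted p = 0.00755). Of 14 markers of sinusoidal endothelial cells, 10 were higher and 0 lower in C2. Their sum was 238 to 253 CPM in CTRL livers, 269 to 288 in C1, 326 to 372 in C2 and 251 to 296 in C3, with 0 of 14 at 0 in CTRL, and their part in the Nr2f2 result was not tested, nor was that of the nuclear RNA index (Pearson r 0.77).

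Nr5a2 encodes LRH-1, which activates bile acid synthesis genes together with HNF4A. It measured 55.8, 57.3, 58.2 and 57.9 CPM in CTRL, 51.9, 53.2, 48.4 and 55.3 CPM in C1, 50.6, 50.9, 43.3 and 44.1 CPM in C2, and 49.6, 47.4, 48.9 and 47.5 CPM in C3. Every DPhP library was below every CTRL library, by small amounts. The C2 call (log2 fold change -0.28 ± 0.09, edgeR adjusted p = 0.0359) held in 4 of 16 fits without 1 library, those without C1-1, C2-1, C2-2 or C3-1, with an adjusted p up to 0.133 in the rest. It was also lost under both other scalings, with no filter, when only the 2 groups were fitted, and without C2-3, C2-4 and C3-4 together, where instead C3 was called (-0.24 ± 0.07, edgeR adjusted p = 0.0396). The Pearson r of Nr5a2 with the nuclear RNA index was -0.82, whose part was not tested. The remaining orphan receptors, Nr2c1, Nr2c2, Nr2f1, Nr2f6, Nr6a1, Rora and Esrra, were not called against CTRL by edgeR with all libraries. Nr2c2, an orphan receptor also known as TR4, was called higher in C1 without the 3 libraries (0.21 ± 0.07, edgeR adjusted p = 0.0457). Nr6a1, a receptor best known in germ cells, reversed in C2 without the 3 libraries, with a log2 fold change of -0.40 ± 0.12 (edgeR adjusted p = 0.0131) in place of 0.04 ± 0.19.

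**Figure D3:**
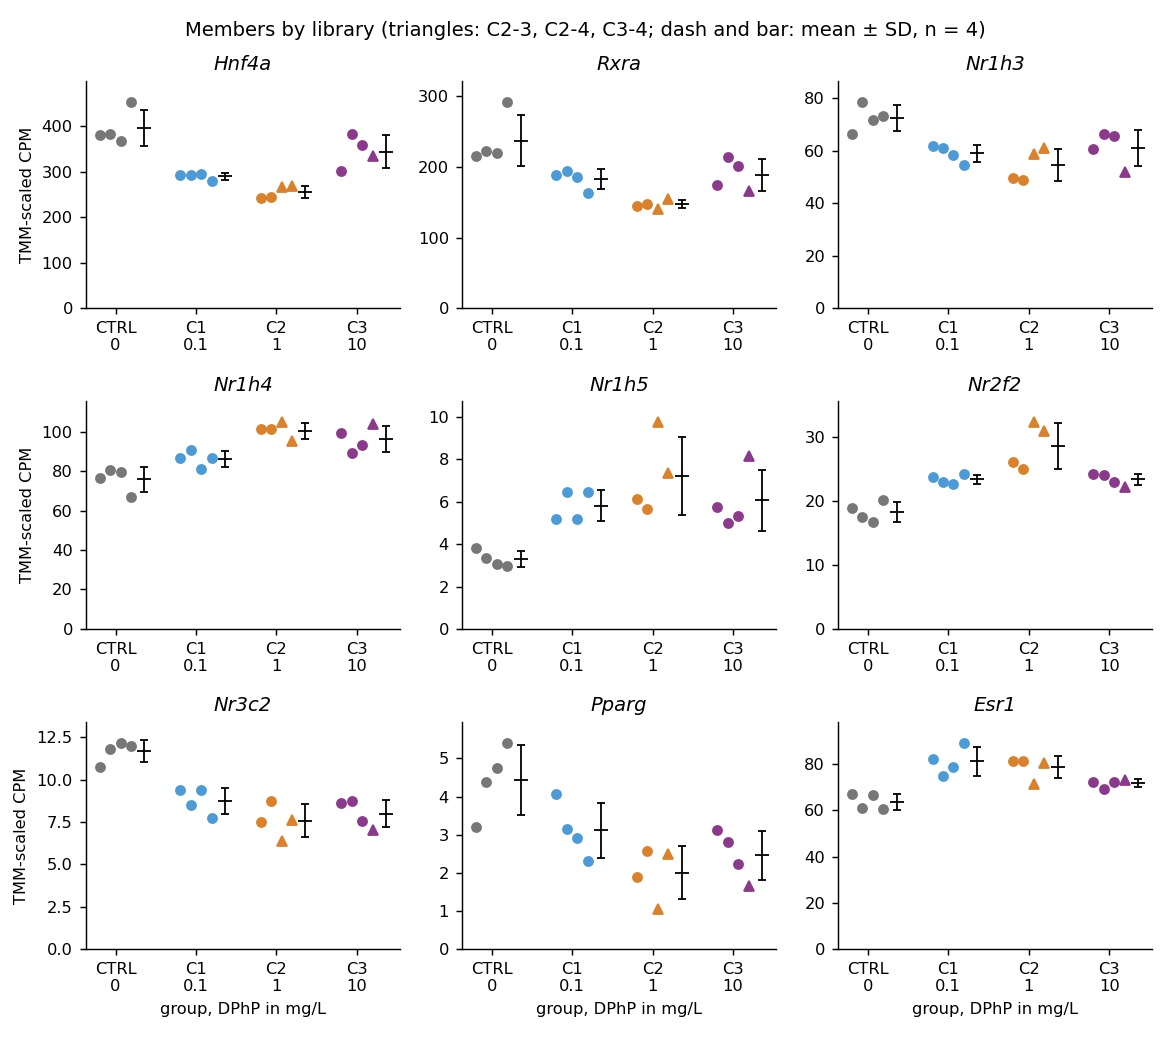
TMM-scaled CPM (vertical axis) of 9 receptors in each library by group and DPhP concentration, with the mean and SD of 4 libraries beside the points and triangles for C2-3, C2-4 and C3-4. The C2 libraries of Hnf4a sit between 243 and 269 CPM, all below the CTRL libraries, and those of Nr1h4 sit between 95.2 and 105 CPM, all above them.

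Among the coactivators, edgeR called 1 of 5 with all libraries. Ncoa3 is a p160 coactivator with histone acetyltransferase partners, and had 23.6, 23.5, 20.7 and 25.3 CPM in CTRL, 26.2, 28.6, 25.6 and 32.0 CPM in C1, 29.2, 25.6, 42.5 and 38.0 CPM in C2, and 22.55, 24.6, 25.4 and 34.2 CPM in C3. C1 and C2 lay above CTRL, and the 3 libraries with a high nuclear RNA index held the 3 highest values. Ncoa3 rose in C2 (edgeR log2 fold change 0.53 ± 0.16, adjusted p = 0.0251). That call was lost without C2-3, C2-4 or CTRL-3 (adjusted p up to 0.0781), when only the 2 groups were fitted, and without C2-3, C2-4 and C3-4 together, and the Pearson r of Ncoa3 with the index was 0.89. In that last fit Ncoa3 was called higher in C1 (0.27 ± 0.09, edgeR adjusted p = 0.0378).

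Med1, the Mediator subunit that receptors contact, had 34.5, 29.0, 31.5 and 32.3 CPM in CTRL, 32.2, 34.3, 29.3 and 33.7 CPM in C1, 31.1, 29.9, 42.5 and 37.2 CPM in C2, and 28.4, 28.1, 33.5 and 42.0 CPM in C3. The groups overlapped and none was called. Ncor1, the corepressor that carries HDAC3 to unliganded receptors, had 66.3, 61.5, 64.3 and 67.6 CPM in CTRL, 66.3, 63.6, 65.6 and 64.5 CPM in C1, 59.6, 58.0, 75.2 and 89.4 CPM in C2, and 61.0, 69.2, 64.6 and 72.1 CPM in C3. It too overlapped in every group and was not called. Ncoa1, Ncoa2, Ppargc1b and the corepressor Nrip1 gave no edgeR call against CTRL with all libraries. Ppargc1b, a coactivator of mitochondrial genes, was called higher in C2 by DESeq2 (0.74, adjusted p = 0.0358) and by edgeR under upper-quartile scaling (0.80, adjusted p = 0.0492). Without the 3 libraries, Ncoa1 (-0.46 ± 0.14, edgeR adjusted p = 0.0163) and Ncoa2 (-0.25 ± 0.09, edgeR adjusted p = 0.0434) were called lower in C2.

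**Figure D4:**
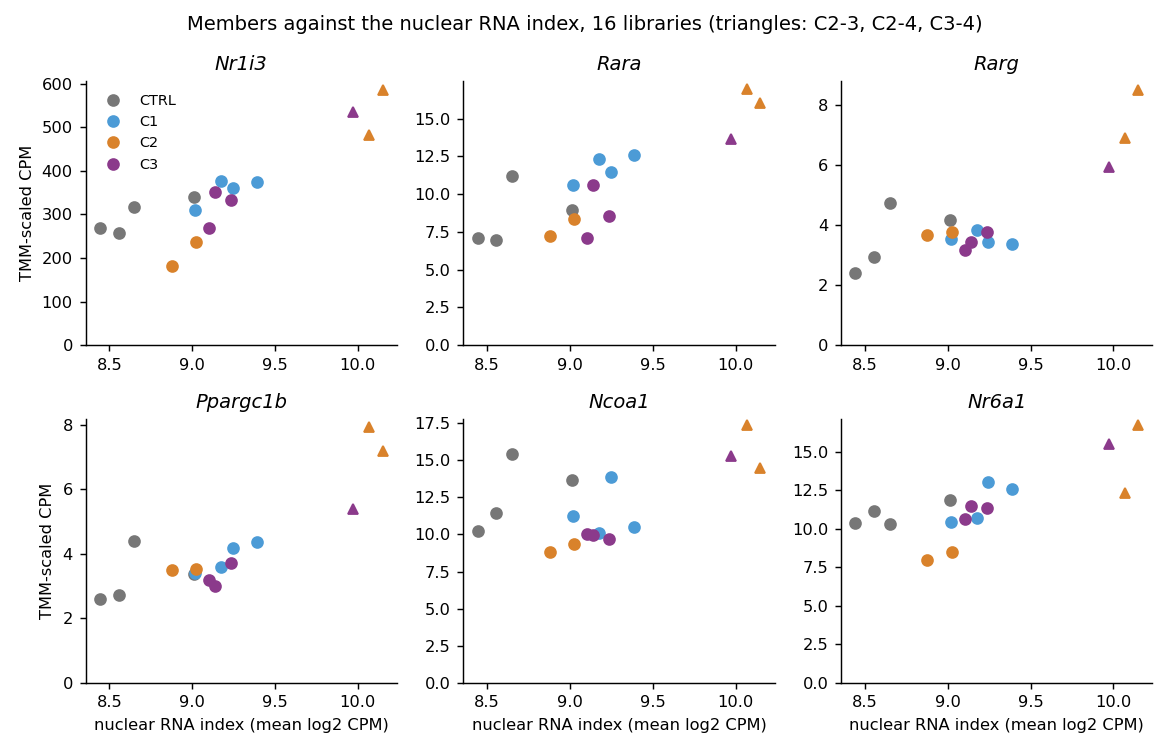
TMM-scaled CPM (vertical axis) of 6 genes against the nuclear RNA index (horizontal axis, mean log2 CPM of 4 RNAs) in 16 libraries coloured by group. C2-3, C2-4 and C3-4 (triangles) lie at an index of 9.97 or more, where Nr1i3 is at 483 to 586 CPM.

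Leaving out C2-3, C2-4 and C3-4 together changed the counts. In C2, 17 of the 37 genes were called, 4 higher and 13 lower, against a background of 28% of all genes, and 10 of them were among the 12 called with all libraries. In C1 the count was 11 (7 higher, 4 lower; background 14.6%), and in C3 it was 7 (3 higher, 4 lower; background 6.09%).

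**Figure D5:**
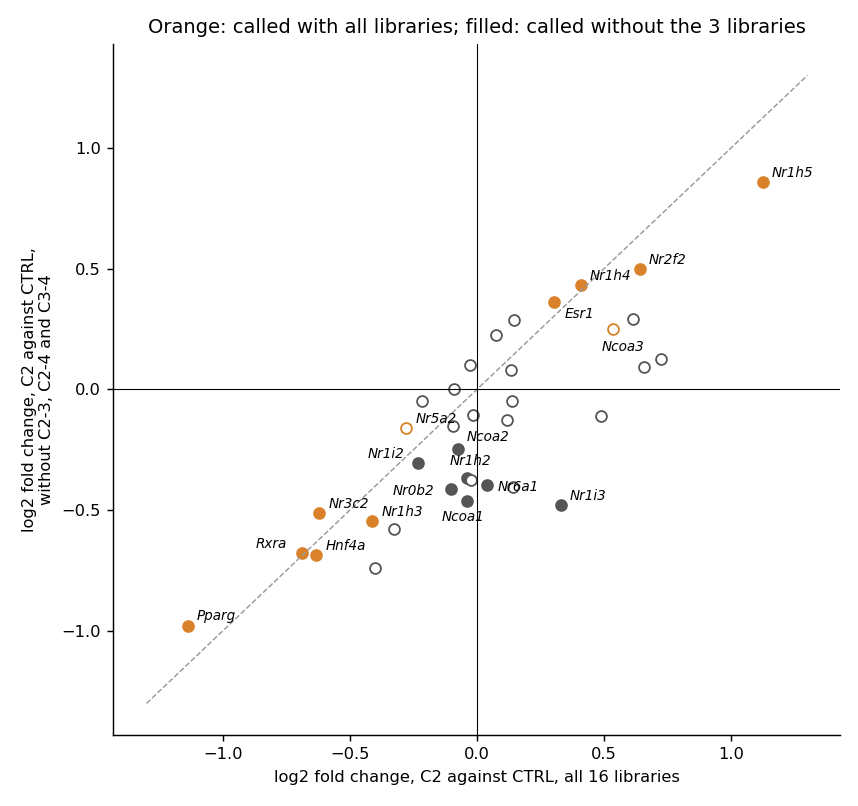
Log2 fold change of C2 against CTRL for 36 genes with all 16 libraries (horizontal axis) and without C2-3, C2-4 and C3-4 (vertical axis), with Vdr (-3.65 and -3.72) off the scale and not drawn. Nr1i3 lies right of 0 and below 0, at 0.33 and -0.48, and Nr5a2 and Ncoa3 are the 2 orange open points.

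Between DPhP groups, 2 genes were called in C2 against C1 (0 higher, 2 lower; 5.41% against a background of 2.06%) and 2 in C3 against C1 (0 higher, 2 lower; 5.41% against 0.87%). Both times they were Vdr and Hnf4g, which passed the filter only through groups where they were high. Those groups were C1 for Hnf4g, and CTRL and C1 for Vdr. The choice of tested genes thus used C1, so no conclusion is drawn from these shares. In C2 against C1 the log2 fold change was -3.98 ± 0.69 for Vdr (edgeR adjusted p = 0.00385) and -2.63 ± 0.50 for Hnf4g (edgeR adjusted p = 0.00849). In C3 against C1 it was -3.02 ± 0.63 for Vdr (edgeR adjusted p = 0.0245) and -2.12 ± 0.48 for Hnf4g (edgeR adjusted p = 0.0412). The C3 against C1 count was 0 without C1-1, C1-3, C1-4, C3-1 or C3-2, and 1 without C1-2, C2-1, C3-3, C3-4, CTRL-1 or CTRL-2. In C3 against C2, edgeR called 0 genes (background 1.44%), with 5 at an unadjusted p under 0.05, DESeq2 called 1 and limma-voom called 0. The gene DESeq2 called was Hnf4a, which averaged 345 ± 35.4 CPM in C3 and 256 ± 13.8 CPM in C2 (SD, n = 4 each), with an edgeR adjusted p of 0.0793. Without C2-3, C2-4 and C3-4, 8 genes were higher in C3 than in C2 (background 7.84% higher, 14.3% in both directions): Nr0b2, Nr1h2, Nr1h3, Nr1i3, Rxra, Hnf4a, Nr6a1 and Esrra. Without those libraries, 7 were called in C2 against C1 (background 18.7%) and 2 in C3 against C1 (background 3.41%).

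Genes regulated by these receptors were counted from lists that leave out the 37. The shares of all genes called, to read the counts against, are those above: 2.32%, 18.3% and 1.4% in C1, C2 and C3 with all libraries, and 14.6%, 28% and 6.09% without the 3 that stood apart. Of 34 tested PPAR targets, 1 rose and 7 fell in C1, 1 rose and 14 fell in C2, and 0 rose and 10 fell in C3. Their median log2 fold change was -0.27, -0.41 and -0.45 in C1, C2 and C3, beside the all-gene medians above. Without C2-3, C2-4 and C3-4, 1 rose and 17 fell in C1, 3 rose and 16 fell in C2, and 0 rose and 18 fell in C3. Vnn1, a pantetheinase induced by PPARα in mice, averaged 30.7 ± 4.48 CPM in CTRL livers, 7.18 ± 0.930 in C1, 9.77 ± 3.89 in C2 and 6.31 ± 1.80 in C3 (SD, n = 4 each). Its log2 fold change was -2.09 in C1, -1.62 in C2 and -2.28 in C3 (edgeR adjusted p = 0.000133, 0.000243 and 0.000136). The fatty acid transporter Cd36 fell by 1.25 in C1, 1.33 in C2 and 1.32 in C3 on the log2 scale. On that scale the fatty acid hydroxylase Cyp4a14 fell by 1.27 in C1, 0.70 in C2 and 1.04 in C3.

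Of 20 tested glucocorticoid receptor targets, 1 rose and 10 fell in C1, 1 rose and 14 fell in C2, and 0 rose and 1 fell in C3. The median log2 fold change was -0.60, -0.64 and -0.18 in C1, C2 and C3. Ddit4, an inhibitor of mTORC1, fell by 1.74 in C1 and 1.79 in C2, and the metallothionein Mt2 fell by 2.17 in C2, on the log2 scale. The exception in C1 was Zbtb16, a transcription factor, at 24.3 ± 1.16 CPM in C1 and 3.99 ± 0.790 CPM in CTRL (SD, n = 4 each; log2 fold change 2.61, edgeR adjusted p = 1.882e-06), which also rose in C2 by 1.11. In C3 the 1 lower target was Fkbp5, a co-chaperone of the receptor (-0.59 ± 0.09, edgeR adjusted p = 0.00221), which also fell in C1 and C2. Without the 3 libraries that stood apart, 3 rose and 13 fell in C1, 1 rose and 17 fell in C2, and 2 rose and 7 fell in C3.

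Of 22 tested HNF4A targets, 0 rose and 2 fell in C1, 0 rose and 9 fell in C2, and 0 rose and 1 fell in C3. Apoa4, a lipoprotein component, fell by 0.81 in C1 and 1.25 in C2 on the log2 scale, and the glycogen synthase Gys2 fell by 0.60 in C3. The median log2 fold change was -0.17, -0.54 and -0.29. With those 3 libraries left out, 0 HNF4A targets rose and 8 fell in C1, 4 rose and 10 fell in C2, and 0 rose and 6 fell in C3, and the median was -0.18, -0.26 and -0.19.

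Of 18 tested FXR and SHP targets, 1 rose and 1 fell in C1, 1 rose and 5 fell in C2, and 0 rose and 0 fell in C3, where 6 had an unadjusted p under 0.05. Their median log2 fold change was 0.033, -0.35 and -0.13. Without the 3 libraries, 2 rose and 5 fell in C1, 3 rose and 5 fell in C2, and 2 rose and 4 fell in C3, and the median was 0.024, -0.024 and -0.011. Osgin1, an oxidative stress response gene, rose by 1.36 in C1 and 1.42 in C2, and Cyp8b1, the sterol hydroxylase that sets the share of cholic acid, fell by 1.04 in C2, on the log2 scale. Of 16 tested LXR targets, 0 rose and 2 fell in C1, 0 rose and 5 fell in C2, and 0 rose and 1 fell in C3. The phospholipid transfer protein Pltp was lower in all 3, with a log2 fold change of -0.72, -0.90 and -0.78. The median over the LXR targets was -0.062, -0.17 and -0.051. With those 3 libraries left out, 1 rose in each group and 4, 6 and 3 fell in C1, C2 and C3, and the median was -0.074, -0.18 and -0.10.

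Of 27 tested CAR and PXR targets, 3 rose and 1 fell in C1, 1 rose and 8 fell in C2, and 0 rose and 0 fell in C3, where 8 had an unadjusted p under 0.05. The median log2 fold change was 0.072, -0.28 and -0.16. Without the 3 libraries, with 28 tested, 9 rose and 2 fell in C1, 9 rose and 8 fell in C2, and 4 rose and 7 fell in C3, and the median was 0.048, 0.021 and -0.075, positive in C2. In C1, Gsta1 and Cyp2b13 rose by 1.00 and 0.63 on the log2 scale (edgeR adjusted p = 0.033 and 0.012). Alas1, which starts heme synthesis, fell by 1.08 in C1 and 1.06 in C2 on that scale. Gsta1 was lower in C2, with a log2 fold change of -0.97. Of 8 tested retinoic acid receptor targets, 0 rose and 2 fell in C1, 1 rose and 2 fell in C2, and 0 rose and 1 fell in C3. Cyp26b1, which clears retinoic acid, rose in C2 (0.53, edgeR adjusted p = 0.0146) and fell in C3 (-0.72, edgeR adjusted p = 0.0188). The median over these targets was -0.31, -0.024 and -0.29, and without the 3 libraries 1 rose and 4 fell in C1, 4 rose and 3 fell in C2, and 0 rose and 2 fell in C3, with a median of -0.32, 0.10 and -0.24. Of 14 tested ERR targets, 0 rose and 1 fell in C1, 0 rose and 3 fell in C2, and 0 rose and 0 fell in C3, where 4 had an unadjusted p under 0.05. Acadm, a medium-chain acyl-CoA dehydrogenase, fell by 0.59 in C1 and 0.64 in C2 on the log2 scale. The ERR target median was -0.034, -0.16 and -0.18, and without the 3 libraries 0 rose and 4 fell in C1, 4 rose and 3 fell in C2, and 0 rose and 2 fell in C3, with a median of -0.043, -0.050 and -0.070.

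Other nuclear receptors and coregulators outside the 37 were mostly not called by edgeR with all libraries. Of 10 other receptors tested, 2 rose and 0 fell in C1, 1 rose and 1 fell in C2, and 0 rose and 0 fell in C3, where 2 had an unadjusted p under 0.05. Nr4a1 rose in C1 (edgeR log2 fold change 0.96, adjusted p = 0.0407) and Esrrg fell in C2 (-0.43, edgeR adjusted p = 0.0302). Of 30 other coactivators, 1 rose in C1, Ppargc1a (log2 fold change 0.52, edgeR adjusted p = 0.0124), 1 rose in C2, the acetyltransferase Crebbp (0.67, edgeR adjusted p = 0.00441), and 0 changed in C3, where 1 had an unadjusted p under 0.05. Of 20 other corepressors, 1 fell in C2, Tbl1x (-0.26, edgeR adjusted p = 0.0427), and 0 changed in C1 and C3, where 4 and 3 had an unadjusted p under 0.05. With those 3 libraries left out, 2 receptors of 12, 3 coactivators and 2 corepressors rose in C1 and 0 fell. In C2, 1 receptor and 1 coactivator rose, and 4 receptors, 4 coactivators and 3 corepressors fell.

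Over the 16 libraries, the genes whose log2 CPM ran most like that of Nr1h5 were Gm6614, Clk1 and Hnrnph1 (Pearson r 0.981, 0.971 and 0.97). For Hnf4a they were Slc25a44, Uba1 and Cbs (0.976, 0.959 and 0.959), and for Nr2f2 they were Gm37940, Gm22009 and Gm37334 (0.942, 0.933 and 0.928). These correlations describe libraries that share pools, depth and scaling.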

How the data were processed

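The authors deposited raw counts of reads per gene for 16 libraries; the build was GRCm38 and the tools STAR 2.5.2b, FastQC 0.11.5 and bcl2fastq 2.19.1.403, per the submitters' processing notes. Per the labels' protocols, poly(A) RNA was made into libraries with a directional kit. Not given in the sources used here are the filters, the annotation, the counting program and whether it used strand, so reads of overlapping, antisense or near-identical genes cannot be assigned with certainty. Genes were filtered with filterByExpr, scaled by TMM and tested in 1 model of all 16 libraries with group as the only term (edgeR 4.0.16, glmQLFit and glmQLFTest, robust, R 4.3.3, 12 residual degrees of freedom). A gene was called at a Benjamini-Hochberg adjusted p under 0.05 over all 17810 genes tested. CPM are TMM-scaled, and levels per kilobase use GENCODE M21 union exon length. Coordinates and promoter windows are on GRCm38.

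The 37 genes and all lists were chosen with earlier results of these data known, including the nuclear-retained RNA list and the choice of the 3 libraries that stood apart. Library values are given for genes called against CTRL or highest of their role by CPM per kb. Up to 3 called genes per target list and comparison, by absolute log2 fold change, could be named, and 1 of them is not reported here. The values given for Nr1i2, Nr1h2, Rara, Nr2c2, Nr6a1, Ncoa1, Ncoa2, Ppargc1b and Sis were chosen after they were seen. Alternatives were another scaling, other filters, DESeq2 1.42.0, limma-voom (limma 3.58.1), only the groups compared, a replicate block, each library left out, and C2-3, C2-4 and C3-4 left out. The fit was tested on simulated counts with known changes in a small set of genes and a common spread for all genes. It made 123, 121 and 120 calls in C1, C2 and C3 against CTRL there, and 414, 3254 and 249 in the data. It recovered 15.4%, 6.06% and 10.8% of 1.5-fold changes in C1, C2 and C3 against CTRL. For 2-fold changes the shares were 60.6%, 69.7% and 62.7%. The adjusted p depends on how many genes change, and the real spread differs between genes. These shares therefore describe the simulation and are not the power of the comparisons here. A gene that was not called may still differ by such amounts. Counting error sets the floor of 3 counts for a count of 0.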

Additional observations from a re-analysis of the deposited data

Results flagged for a closer look

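Of 148 gene and group combinations of 4 libraries, 5 held a library far from the other 3 by Dixon's criterion, and chance gives about 1 in 20. Esr1 was 71.4 CPM in C2-3, against 80.5 to 81.3 CPM in the other C2 libraries. Rxra was 292 CPM in CTRL-4, against 215 to 221 CPM in the other CTRL libraries. Hnf4g was 0.0954 CPM in C3-2, against 0.198 to 0.214 CPM in the rest of C3, all on few counts. In C3-4, a library with a high nuclear RNA index, Nr6a1 was 15.5 CPM, against 10.7 to 11.5 CPM in the rest of C3. In the same library Ncoa1 was 15.3 CPM, against 9.71 to 10.0 CPM.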

How the results depend on the processing

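Counts of called genes moved by more than 1.5 times in the cases below. The range with 1 library left out is given for every comparison, whether or not it moved that far. In parentheses after each count is the count over all genes in the same fits. In C1 against CTRL the main count was 3 (414). It was 7 (924) with DESeq2 and 11 (2557) with only the 2 groups compared. It was 11 (2688) without C2-3, C2-4 and C3-4, and 0 to 6 (159 to 588) with 1 library left out. In C2 against CTRL the main count was 12 (3254). It was 7 (1492) with only the 2 groups, and 9 to 14 (1972 to 4492) with 1 library left out. In C3 against CTRL the main count was 3 (249). It was 7 (768) with DESeq2, 7 (1125) without the 3 libraries, and 0 to 4 (97 to 450) with 1 left out. In C2 against C1 the main count was 2 (366). It was 0 (354) with at least 5 CPM in 4 libraries, a filter that removes Vdr and Hnf4g. It was 7 (3459) without the 3 libraries, and 2 to 2 (176 to 462) with 1 left out. In C3 against C1 the main count was 2 (155). It was 1 (148) with no filter, 1 (143) with the replicate block and 0 (91) with at least 5 CPM. With 1 left out it was 0 to 2 (81 to 208). In C3 against C2 the main count was 0 (257). It was 1 (614) with DESeq2, 8 (2645) without the 3 libraries, and 0 to 0 (70 to 442) with 1 left out. Other scalings kept each count within 1.5 times. The cause was not tested.

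Without C2-3, C2-4 and C3-4, log2 fold changes reversed and were called for Nr1i3 (-0.48) and Nr6a1 (-0.40) in C2 against CTRL. The same held for Nr1i3 (-0.74) and Rara (-0.56) in C2 against C1, and for Nr0b2 (0.31) and Nr1i3 (0.58) in C3 against C2. Values called neither with all libraries nor in that fit, such as Rara in C2 against CTRL, could also change sign. Without C2-2 alone, Rara was called higher in C2 against CTRL (0.67, edgeR adjusted p = 0.0469).

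Replicate numbers did not pair the libraries: 9 of 24 same-numbered pairs had a correlation of deviations over 0.1 (median 0.0471, against -0.021 for different numbers), and 0 libraries ran best with their own number. With the replicate block, 2, 13 and 3 genes were called in C1, C2 and C3 against CTRL, 2 in C2 against C1, 1 in C3 against C1 and 0 in C3 against C2. Over all genes the counts with the block were 435, 3426, 256, 387, 143 and 260 in the same order. Depth limits Vdr and Hnf4g, which rest on 6 to 79 counts per group.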
